A study of Homo sapiens with 6 samples.

Results

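Solute carrier (SLC) genes encode the membrane proteins that move amino acids, sugars, metals, ions, nucleotides and cofactors into and out of cells and organelles. The members described here were the protein-coding genes of the count table whose symbol has the form SLC, family number, A, member number, and whose mean over the 6 libraries was at least 50 reads. Of the 28491 genes in the table, 195 met this rule. At any count, 292 protein-coding genes had such a symbol. The lowest members were SLC6A16 and SLC25A48, with mean counts of 54.7 and 58.2, and the nearest genes outside were SLC25A21 and SLC6A20, with 49.8 and 46.2. All 195 members passed edgeR's filter on low counts and all had a value in the FPKM table.

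HCT116 is an epithelial line from a human colorectal tumour. Its poly(A) RNA was taken 48 h after the cells received either an RBM47 plasmid (RBM47-OE, 3 libraries) or a control plasmid (NC, 3 libraries). RBM47 is an RNA-binding protein that acts on splicing and on the stability of mRNAs. The labels name pcDNA3.1-3xFlag-RBM47 as the plasmid and DMEM as the medium, whereas the methods name pIRES-hrGFP-1a and McCoy's 5A. Every library is a pool of the transfected culture, so cells that took up plasmid and cells that did not were measured together, and a shift in the mixture of cells and a change of RNA per cell cannot be told apart. The libraries held 26792409 to 35477983 counts on genes. The FPKM of RBM47 was 1.91, 2.33 and 1.94 in NC and 131.3, 130.4 and 127.0 in RBM47-OE, and reads from the plasmid are counted with those of the cells' own gene. All 7 epithelial markers were expressed, with a summed FPKM of 1999 to 2178 in NC and 1850 to 2099 in RBM47-OE. The fibroblast, immune and endothelial markers, 9 of 12 in the table, summed to 1.54 to 2.08 FPKM over all libraries.

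Carriers differ in what drives them. Some facilitate diffusion along a gradient, such as the glucose carriers of the SLC2 family, and others exchange one solute for another or use the sodium or proton gradient. SLC7A5 (LAT1) brings in large neutral amino acids and reaches the plasma membrane only with SLC3A2 (4F2hc). The SLC39 (ZIP) proteins bring zinc and other metals into the cytosol and the SLC30 (ZnT) proteins take zinc out of it, while most SLC25 proteins lie in the inner mitochondrial membrane. Tumour cells with high glycolytic flux depend on glucose uptake by SLC2A1 and on lactate and proton export by SLC16A1 and SLC16A3, which need the chaperone BSG.

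The promoters of the amino acid carriers were read first, because several of these genes are textbook targets of the amino acid response and of MYC-type factors. RefSeq (GRCh38.p14) gave a promoter, 250 bases before to 50 bases after the start, for 156 of the 195 members. The letters TGATGNAA, the core of the composite element bound by C/EBP and ATF proteins, were searched on both strands. They were found in a promoter of 6 of 26 amino acid and peptide members (23.1%), of 10 of all 156 members (6.41%) and of 1217 of all 27305 genes (4.46%). The palindrome CACGTG, an E-box, was found in 8 of the 26 (30.8%), in 31 of 156 members (19.9%) and in 2396 of the 27305 genes (8.77%). The 27305 are all genes with a RefSeq promoter, whatever their expression here, and are not matched to the members. A gene was counted if any of its promoters held the motif. The E-box did not set the amino acid members apart. Its share was higher in nucleotide members (3 of 8) and inorganic ion members (6 of 19). It was lower in mitochondrial members (8 of 32), metal and heme members (3 of 22) and members for other organic solutes (3 of 35). Sugar members (0 of 11) and members that are no carriers (0 of 3) lacked it. A match is a description of letters and not of a bound factor. The windows below carry the matches of 6 members whose values follow, with the motif in capitals, read 5′ to 3′ on the strand of the gene. They stand at chr11:62881726-62881748 (plus strand) for SLC3A2, chr19:46784894-46784921 (minus) for SLC1A5, chr5:36596358-36596385 (plus) for SLC1A3, chr12:46266503-46266530 (minus) for SLC38A1, chr16:87869622-87869647 (minus) for SLC7A5 and chrX:48470451-48470476 (minus) for SLC38A5.
SLC3A2: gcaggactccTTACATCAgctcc
SLC1A5: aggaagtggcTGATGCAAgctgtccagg
SLC1A3: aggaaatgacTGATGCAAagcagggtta
SLC38A1: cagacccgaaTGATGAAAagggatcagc
SLC7A5: ccggacgacgCACGTGctccgagctg
SLC38A5: ctgtagcggaCACGTGgcttgcctgg

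Of the 6 amino acid members with TGATGNAA, 3 were lower in RBM47-OE (SLC3A2, SLC1A5 and SLC7A1), 2 were higher (SLC1A3 and SLC38A1) and SLC1A4 was not called. SLC1A3, a glutamate importer, had a log2 fold change of 0.39 (adjusted p = 0.0079), and 0.16 with the GC offset (adjusted p = 0.34). SLC38A1, a glutamine carrier, had 0.27 (adjusted p = 0.017), and 0.11 with the GC offset (adjusted p = 0.33). Of the 8 with CACGTG, 5 were lower, none was higher and 3 were not called. The 5 were SLC7A5, SLC38A5, SLC7A8, SLC38A7 and SLC1A5. The CACGTG of SLC1A5 lies in another promoter of the gene, at chr19:46787328-46787353 (minus strand), and its window is not shown. With the GC offset SLC7A5 and SLC38A5 were still lower, and SLC7A8, SLC38A7 and SLC1A5 were not called. In the whole class 9 of 29 members were lower and 5 were higher. Of the protein-coding genes with a mean of at least 50 reads, 21.2% were lower and 24.8% higher. A link of either motif to the changes was not tested.

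On the FPKM scale, which divides reads by gene length and allows genes to be compared, the means of the carriers in NC ran from 0.150 FPKM (SLC4A8) to 292.0 FPKM. The median member had 3.38 FPKM in NC, 40 members had at least 10 and 29 had less than 1. The highest was SLC25A5, the ADP/ATP exchanger of the mitochondrial inner membrane, at 292.0 ± 8.69 FPKM (SD, n = 3). The lactate exporter SLC16A3 followed at 118.5 ± 4.39 and SLC7A5 at 105.2 ± 3.04. These 3 members held 23.8% of the summed FPKM of all members. SLC25A3, the mitochondrial phosphate carrier, and SLC25A1, the citrate carrier, stood next at 98.0 ± 2.60 and 97.8 ± 5.85 and were not distinct beyond their spread. Below them came SLC25A39 (87.3), which brings glutathione into mitochondria, SLC2A1 (75.4), the zinc carrier SLC39A7 of the endoplasmic reticulum and Golgi (74.4), the scaffold SLC9A3R1 (70.8), the glutamine carrier SLC1A5 (65.3), SLC38A2 (62.9) and SLC3A2 (41.5). The members as a whole made up 0.792% to 0.834% of the summed FPKM in each library, and the 2 groups overlapped.

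**Figure D1:**
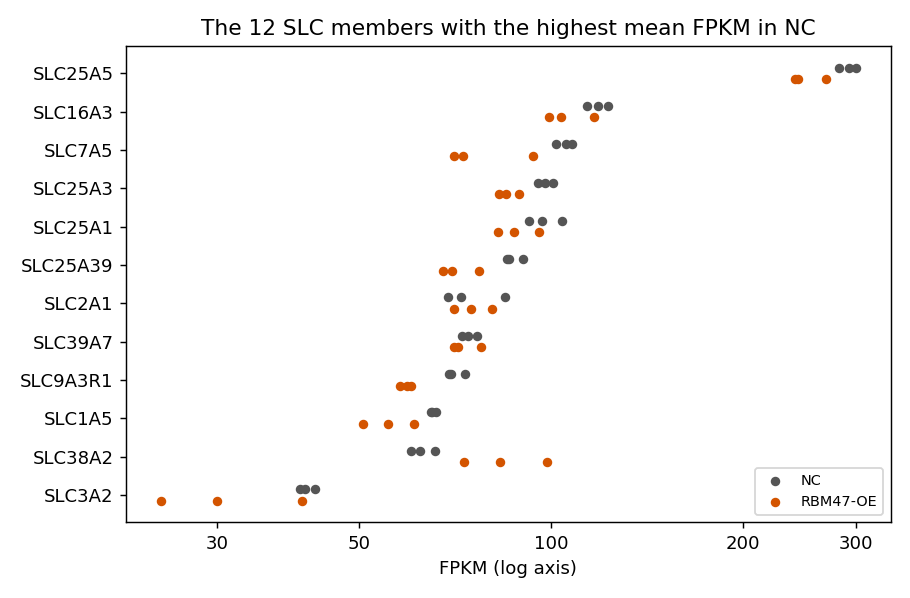
FPKM (log axis) of the 12 SLC members with the highest mean FPKM in NC, 1 point per library, grey for NC and orange for RBM47-OE. SLC25A5 stood highest at 292.0 FPKM on average in NC, SLC38A2 was the one member of the 12 with all RBM47-OE points above all NC points, and SLC2A1 overlapped.

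The question of the comparison was how expression in HCT116 cells differs when RBM47 is raised. It was tested with edgeR's quasi-likelihood test over all 16260 genes that passed the filter, and p-values were adjusted over all of them by the Benjamini-Hochberg method. At an adjusted p under 0.05, 45 members were higher in RBM47-OE, 48 were lower and 102 were not called. Over all genes tested, 19.1% were higher and 16.9% lower. Over the 11972 protein-coding genes with a mean of at least 50 reads, 24.8% were higher and 21.2% lower, and the members' shares of 23.1% and 24.6% were near those values. The changes were small. The log2 fold change was between 0.20 and 0.67 among the higher members (median 0.37) and between -0.56 and -0.21 among the lower ones (median -0.31). In 41 of the 45 and in all 48, the change was under 1.5-fold. Scaling by library totals instead of TMM gave 50 higher and 32 lower.

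At the thresholds of the study, an unadjusted p under 0.01 and a fold change over 1.5, 4 members were higher and none was lower, where 1.51% and 0.873% of all genes tested passed. The largest decrease of any member was 1.48-fold, so no member could pass this fold change downward, and DESeq2 with the same thresholds also gave 4 and 0. All 3 RBM47-OE libraries exceeded all 3 NC libraries in 48 members and lay under all of them in 59, beside 23.2% and 23.4% of all genes tested. All genes tested include genes with a mean under 50 reads. The matching shares of protein-coding genes above that limit are not given. RBM47-OE replicate 1 stood apart from replicates 2 and 3. Without it, 54 members were higher and 53 were lower, beside 23.5% and 21.3% of all genes tested and 30.7% and 27.2% of the protein-coding genes with a mean of at least 50 reads.

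The log2 fold change of the members followed the GC content of their exons. Spearman's rho across the 195 members was -0.73, and across 16233 genes it was -0.63. Genes are no independent replicates and share the same 6 libraries. The median exonic GC content was 39.6% among the higher members, 58.3% among the lower ones and 52.7% among those not called. Over all genes, the difference of each RBM47-OE library from NC had a rho with GC content of -0.41, -0.59 and -0.67 in replicates 1, 2 and 3. A second edgeR fit took each library's trend with GC content out as an offset, and this also removes any real change that tracks GC content. With this GC offset 16 members were higher and 14 lower, beside 5.97% and 8.57% of all genes and 7.60% and 10.7% of the protein-coding genes with a mean of at least 50 reads, and 12 and 11 of these were also called without it. Of the members called without it, 8 of the 45 higher and 2 of the 48 lower had a fold change of the opposite sign. The part of GC content in each result was not tested, and values with the GC offset are given beside those without it. The FPKM ratios of pairs of genes given below were taken without a GC offset.

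**Figure D2:**
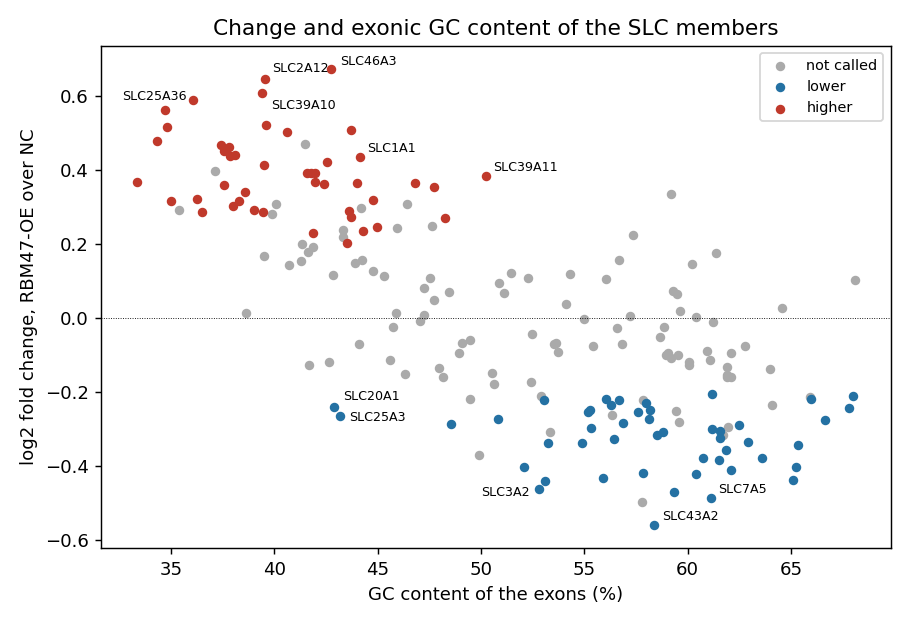
Log2 fold change (RBM47-OE over NC) of the 195 SLC members against the GC content of their exons in percent. Red points are members called higher and blue points members called lower at an adjusted p under 0.05, and grey points were not called; the higher members lie at a median GC content of 39.6% and the lower ones at 58.3%.

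Of 29 amino acid and peptide carriers, 9 were lower, 5 were higher and 15 were not called, beside 21.2% lower and 24.8% higher of the protein-coding genes with a mean of at least 50 reads. The median log2 fold change was -0.15, beside a median near 0 (3.96e-05) over all genes tested. With the GC offset the median was -0.07. Then 4 were lower and 1 was higher, beside 10.7% and 7.60% of those protein-coding genes. The 4 were SLC43A2, SLC7A5, SLC3A2 and SLC38A5.

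SLC43A2 (LAT4), a facilitative carrier of branched-chain amino acids, phenylalanine and methionine, had the largest decrease of all members. It lies on the minus strand of chromosome 17 from 1569268 to 1628886 (GRCh38). Levels of single members are given in CPM, counts scaled to a common library size with TMM factors, which compares libraries and not genes. SLC43A2 measured 26.1, 25.1 and 28.8 in NC and 18.03, 19.0 and 17.1 in RBM47-OE. All RBM47-OE libraries were lower than all NC libraries. The log2 fold change was -0.56 (SE 0.094, adjusted p = 1.2e-04), or 1.48-fold lower, and -0.37 with the GC offset (adjusted p = 0.0039).

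SLC7A5 and SLC3A2 form 1 carrier. SLC7A5 (chromosome 16, 87830023 to 87869507, minus strand) measured 586.9, 595.8 and 563.0 CPM in NC and 391.95, 481.1 and 371.6 in RBM47-OE. Its partner SLC3A2 (chromosome 11, 62856004 to 62888880, plus strand) measured 306.9, 316.3 and 300.1 CPM in NC and 216.3, 280.6 and 173.3 in RBM47-OE. In both genes the RBM47-OE libraries lay below NC and replicate 2 was the least reduced. On the FPKM scale SLC3A2 in that replicate, at 40.72, lay above the lowest NC library, at 40.52. SLC7A5 has pseudogenes with near-identical sequence, whose reads may be shared with it. The log2 fold change of SLC7A5 was -0.49 (SE 0.083, adjusted p = 1.3e-04), and -0.28 with the GC offset (adjusted p = 0.019). That of SLC3A2 was -0.46 (SE 0.10, adjusted p = 0.0013), and -0.34 with the GC offset (adjusted p = 0.024). The ratio of SLC7A5 to SLC3A2 in FPKM was 2.54 ± 0.026 in NC and 2.54 ± 0.30 in RBM47-OE (SD, n = 3; exact permutation test, two-sided, p = 1.0, the same after adjustment over the 5 pairs of genes compared).

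SLC7A11, which pairs with the same SLC3A2 to import cystine in exchange for glutamate, measured 27.2, 24.0 and 24.3 CPM in NC and 22.5, 43.5 and 26.3 in RBM47-OE. The groups overlapped, RBM47-OE replicate 2 stood far above the rest, and the log2 fold change of 0.29 (SE 0.14) was not called (adjusted p = 0.12), and it was -0.09 with the GC offset. It was called without RBM47-OE replicate 1 (adjusted p = 0.0043). Its FPKM ratio to SLC3A2, without a GC offset, was 0.0542 in NC and 0.0908 in RBM47-OE, without overlap. The exact permutation p was 0.10, the smallest that 3 against 3 allows, and 0.17 after Benjamini-Hochberg adjustment over the 5 pairs.

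The glutamine and neutral amino acid carriers fell on both sides. SLC1A5 (ASCT2), the main sodium-coupled glutamine importer of many tumour cells, measured 256.4, 250.4 and 251.1 CPM in NC and 208.9, 219.3 and 187.6 in RBM47-OE, a log2 fold change of -0.30 (SE 0.072, adjusted p = 0.0023), and -0.09 with the GC offset (adjusted p = 0.34). Exons of other genes cover 23.8% of its exonic bases. SLC38A5, another glutamine carrier, measured 46.7, 47.9 and 48.5 CPM in NC and 40.3, 29.6 and 37.1 in RBM47-OE (-0.42, adjusted p = 0.0011, and -0.24 with the GC offset, adjusted p = 0.045). SLC38A2 (SNAT2), the stress-induced neutral amino acid importer, measured 473.0, 455.6 and 497.2 CPM in NC and 537.8, 692.8 and 599.1 in RBM47-OE. It was higher without overlap, at 0.36 (SE 0.082, adjusted p = 0.0014), but its change was 0.02 with the GC offset (adjusted p = 0.88). SLC1A1 (EAAT3), a glutamate importer, rose by 0.43 (SE 0.094, adjusted p = 0.0010), from 18.4, 17.9 and 20.4 CPM to 25.6, 26.9 and 24.0, and by 0.29 with the GC offset (adjusted p = 0.020). SLC6A16, the lowest member by count, was not called (-0.06, SE 0.23).

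Glucose and sugar carriers had the fewest calls of the classes. Over the protein-coding genes with a mean of at least 50 reads, 24.8% were higher and 21.2% lower. Of 16 sugar carriers, SLC2A12 was higher (6.25%), SLC37A4 was lower (6.25%) and 14 were not called. Their median log2 fold change was -0.03 (0.11 with the GC offset). SLC2A1 (GLUT1), the most abundant of them, measured 557.5, 529.1 and 650.2 CPM in NC and 603.7, 503.0 and 550.0 in RBM47-OE. The groups overlapped and the log2 fold change was -0.07 (SE 0.083, adjusted p = 0.56), and 0.07 with the GC offset (adjusted p = 0.60). SLC2A3 (GLUT3), which shares sequence with its close paralogue SLC2A14, was not called either, at 0.11 (SE 0.11, adjusted p = 0.48), and 0.02 with the GC offset.

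SLC2A12 (GLUT12) rose from 7.76, 7.61 and 7.27 CPM to 12.5, 11.6 and 11.2, with no overlap. The log2 fold change was 0.64 (SE 0.12, adjusted p = 2.2e-04) and 0.36 with the GC offset (adjusted p = 0.040). Of its exonic bases, 51.2% also lie in exons of TBPL1, and strand use in counting is not stated, so reads of the 2 genes may not be separated. SLC37A4, the glucose-6-phosphate carrier of the endoplasmic reticulum, fell from 57.6, 56.7 and 57.1 CPM to 49.8, 46.2 and 48.3 (-0.25, adjusted p = 0.010, and -0.09 with the GC offset, adjusted p = 0.34). It was not called without NC replicate 1 or without NC replicate 3 (adjusted p = 0.053 and 0.050).

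Metal and heme carriers had the largest share of higher members, 12 of 25, with 4 lower and a median log2 fold change of 0.16. Their median exonic GC content was 44.3%, below the 49.0% of all genes. With the GC offset 2 were higher, none was lower (3 and 2 at an unadjusted p under 0.05) and the median was 0.06. The shares of those protein-coding genes at an adjusted p under 0.05 were then 7.60% higher and 10.7% lower. By family, 5 of 7 SLC30 (ZnT) members were higher and none was lower, but none was called with the GC offset, where none had an unadjusted p under 0.05 either. Of 11 SLC39 (ZIP) members, 5 were higher and 3 were lower, and 2 were higher with the GC offset. Both families stand beside the same shares, 24.8% higher and 21.2% lower, and 7.60% and 10.7% with the GC offset.

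SLC39A10 (ZIP10), a plasma membrane zinc importer on chromosome 2 (195575977 to 195737702, plus strand), measured 34.6, 34.5 and 35.9 CPM in NC and 48.9, 53.0 and 58.5 in RBM47-OE. The groups did not overlap, the log2 fold change was 0.61 (SE 0.082, adjusted p = 2.7e-05), or 1.52-fold, and with the GC offset it was 0.31 (adjusted p = 0.0022). SLC39A11 (ZIP11) measured 45.4, 42.6 and 44.2 CPM in NC and 57.7, 58.8 and 55.7 in RBM47-OE. Its exonic GC content was 50.3%, the highest among the higher members, and its log2 fold change was 0.38 (adjusted p = 4.1e-04) and 0.45 with the GC offset (adjusted p = 5.9e-05). SLC39A6 (ZIP6), the partner of SLC39A10 in a zinc-importing complex, was higher at 0.39 (adjusted p = 4.9e-04, and 0.16 with the GC offset, adjusted p = 0.065). The FPKM ratio of SLC39A10 to SLC39A6, without a GC offset, was 0.206 in NC and 0.239 in RBM47-OE, without overlap (exact permutation p = 0.10, adjusted 0.17).

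The exporters into the secretory pathway, SLC30A5 and SLC30A6, which work as a pair, were higher at 0.30 (adjusted p = 0.0035) and 0.44 (adjusted p = 0.0015), and at -0.03 and 0.11 with the GC offset, where neither was called. Their FPKM ratio was 1.83 in NC and 1.69 in RBM47-OE (exact permutation p = 0.40, adjusted 0.50). SLC39A3, a further zinc importer, had the largest decrease of the class, from 28.8, 29.4 and 30.5 CPM to 24.2, 16.9 and 23.0 (-0.47, adjusted p = 0.0014, and -0.27 with the GC offset, adjusted p = 0.054).

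SLC11A2 (DMT1), the ferrous iron importer, was higher at 0.23 (SE 0.088, adjusted p = 0.039), but it was called in 1 of the 6 fits that left out a library, and its change was 0.10 with the GC offset (adjusted p = 0.41). The copper importer SLC31A1 (CTR1) measured 69.7, 70.0 and 71.1 CPM in NC and 76.9, 77.8 and 80.5 in RBM47-OE, without overlap, yet was not called (0.16, SE 0.070, adjusted p = 0.080, and 0.02 with the GC offset). It was called without RBM47-OE replicate 1 (adjusted p = 0.017). SLC39A14 (-0.09), SLC39A7 (-0.09) and the zinc exporter SLC30A1 (0.14) were not called, with adjusted p-values of 0.32, 0.34 and 0.28. They were at -0.06, 0.05 and -0.12 with the GC offset and were not called. SLC39A7 was called without RBM47-OE replicate 1 (adjusted p = 0.042).

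The SLC25 family, most of whose proteins serve mitochondria, was the largest family. Of 38 members, 12 were lower (31.6%), 7 were higher (18.4%) and 19 were not called, with a median log2 fold change of -0.10. Of the protein-coding genes with a mean of at least 50 reads, 21.2% were lower and 24.8% higher. With the GC offset 7 of the 38 were lower and 2 were higher, beside 10.7% and 7.60% of those genes. The median of the 38 was then -0.05. Among the 7 were SLC25A22, SLC25A5, SLC25A3, SLC25A17, SLC25A26 and SLC25A32.

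SLC25A5 (ANT2; chromosome X, 119468422 to 119471396, plus strand) measured 531.2, 540.3 and 509.7 CPM in NC and 473.3, 404.4 and 419.1 in RBM47-OE. All RBM47-OE libraries were lower, at -0.29 (SE 0.074, adjusted p = 0.0040) and -0.26 with the GC offset (adjusted p = 0.0074). SLC25A3 measured 1044.2, 1009.7 and 983.7 CPM in NC and 896.5, 794.6 and 836.8 in RBM47-OE, at -0.26 (adjusted p = 0.0065) and -0.44 with the GC offset (adjusted p = 3.0e-04). It was not called without NC replicate 1 (adjusted p = 0.058). These carriers supply the ADP and phosphate that ATP synthase uses. SLC25A6 (ANT3), the paralogue of SLC25A5, had 46 to 92 counts per library and no change that was called (0.00, SE 0.22, and 0.20 with the GC offset). Its gene lies in the pseudoautosomal region, where uniquely mapped reads can be lost to an identical copy, so its level is uncertain, and SLC25A5 has near-identical pseudogenes.

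SLC25A22, a glutamate carrier, fell from 59.6, 64.9 and 66.1 CPM to 52.2, 45.4 and 43.1 (-0.44, adjusted p = 2.7e-04, and -0.22 with the GC offset, adjusted p = 0.014). The peroxisomal carrier SLC25A17 (-0.13), the mitochondrial S-adenosylmethionine carrier SLC25A26 (-0.12) and the folate and FAD carrier SLC25A32 (0.01) were not called without the GC offset, and were lower with it at -0.36, -0.32 and -0.31. Exons of other genes cover 80.8% of SLC25A32.

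SLC25A36, a pyrimidine nucleotide carrier, had the largest increase of the family, from 50.5, 45.4 and 46.5 CPM to 62.5, 76.6 and 70.8 (0.56, SE 0.081, adjusted p = 3.8e-05, and 0.18 with the GC offset, adjusted p = 0.048). Its exonic GC content, 34.7%, was among the lowest. SLC25A37 (mitoferrin-1), which brings iron into mitochondria, rose from 60.4, 62.7 and 64.97 CPM to 74.7, 78.9 and 73.1, by 0.27 (adjusted p = 0.0050) and by 0.28 with the GC offset (adjusted p = 0.0023). SLC25A48, the lowest of the family by count, was not called (0.01, SE 0.24).

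Nucleotide and nucleotide sugar carriers had 4 lower (36.4%) and 2 higher (18.2%) members among 11, with a median of -0.13 (0.02 with the GC offset). None was called with the GC offset, where 2 were higher and 2 lower at an unadjusted p under 0.05. Of the protein-coding genes with a mean of at least 50 reads, 21.2% were lower and 24.8% higher. With the GC offset these shares were 10.7% and 7.60%. SLC29A1 (ENT1), the main equilibrative nucleoside carrier, measured 83.5, 85.4 and 79.8 CPM in NC and 71.7, 65.3 and 68.6 in RBM47-OE (-0.27, adjusted p = 0.0042, and -0.09 with the GC offset, adjusted p = 0.33). The vesicular nucleotide carrier SLC17A9 had the largest decrease (-0.42, adjusted p = 0.0038) and SLC35A5, a nucleotide sugar carrier, the largest increase (0.52, adjusted p = 4.3e-04); with the GC offset these were -0.22 and 0.23 with adjusted p-values of 0.14 and 0.064. SLC29A2 (-0.13) and the UDP-galactose carrier SLC35A2 (-0.08) were not called, and both were at 0.08 with the GC offset.

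Among 25 inorganic ion carriers 5 were higher and 4 lower. The median was -0.11 and was 0.05 with the GC offset. SLC20A1 (PiT1), a sodium-phosphate importer, measured 222.8, 207.3 and 221.6 CPM in NC and 188.4, 183.1 and 179.9 in RBM47-OE. The change was -0.24 on the log2 scale (adjusted p = 0.0078) and -0.43 with the GC offset (adjusted p = 9.8e-05), and at 42.9% it had the lowest exonic GC content of the lower members. It was not called without NC replicate 1 or without NC replicate 3 (adjusted p = 0.061 and 0.057). SLC9A7, a sodium-proton exchanger of the Golgi, rose from 41.9, 39.1 and 41.6 CPM to 52.2, 51.2 and 49.5 (0.32, adjusted p = 0.0022, and 0.20 with the GC offset, adjusted p = 0.034).

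SLC12A2 (NKCC1), the sodium-potassium-chloride importer, was higher at 0.34 (adjusted p = 0.0030, and 0.02 with the GC offset, adjusted p = 0.87). SLC4A2 (AE2), a chloride-bicarbonate exchanger, was lower at -0.33 (adjusted p = 7.8e-04, and -0.12 with the GC offset, adjusted p = 0.21).

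The 45 carriers of other organic solutes, such as monocarboxylates, vitamins, fatty acids and choline, held 12 higher (26.7%) and 11 lower members (24.4%). Their median was 0.07 both without and with the GC offset. These shares were near the 24.8% and 21.2% of the protein-coding genes with a mean of at least 50 reads. With the GC offset 8 of the 45 were higher and 2 were lower, beside 7.60% and 10.7% of those genes. Of these 8, SLC16A1, SLC66A3, SLC27A2 and SLC27A6 were also higher without it, and SLC27A1, SLC6A6, SLC22A31 and SLC16A5 were not.

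The monocarboxylate carriers differed in direction. SLC16A1 (MCT1), on chromosome 1 (112911847 to 112957593, minus strand), measured 85.1, 80.8 and 78.8 CPM in NC and 88.2, 104.5 and 122.5 in RBM47-OE, without overlap (0.36, SE 0.088, adjusted p = 0.0023, and 0.21 with the GC offset, adjusted p = 0.046). SLC16A3 (MCT4) measured 1229, 1267 and 1314 CPM in NC. In RBM47-OE it measured 1221, 990.2 and 1063, with replicate 1 just under NC (-0.22, SE 0.080, adjusted p = 0.033). It was called in 1 of the 6 fits that left out a library and was -0.00 with the GC offset (adjusted p = 0.99). BSG (basigin), the chaperone of both, was lower, with 778.0, 810.4 and 839.7 CPM in NC and 662.3, 530.5 and 536.9 in RBM47-OE (-0.49, adjusted p = 1.1e-04, and -0.28 with the GC offset, adjusted p = 0.0046). The FPKM ratio of SLC16A1 to BSG, without a GC offset, was 0.0703 in NC and 0.130 in RBM47-OE, without overlap (exact permutation p = 0.10, adjusted 0.17).

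Among the vitamin and cofactor carriers, SLC5A6, which imports biotin, pantothenate and lipoate, fell from 35.5, 34.2 and 35.005 CPM to 26.3, 25.03 and 26.3 (-0.43, SE 0.083, adjusted p = 3.7e-04, and -0.27 with the GC offset, adjusted p = 0.012). The folate carrier SLC19A1 fell from 43.7, 44.5 and 39.6 CPM to 32.9, 30.5 and 34.7 (-0.38, adjusted p = 0.0010, and -0.17 with the GC offset, adjusted p = 0.13). The creatine carrier SLC6A8 was lower at -0.38 (adjusted p = 3.0e-04, and -0.16 with the GC offset, adjusted p = 0.040), and it has near-identical copies elsewhere in the genome that can take or lend reads.

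SLC46A3, a lysosomal carrier, had the largest increase of all members, from 2.17, 2.23 and 2.12 CPM to 3.42, 3.30 and 3.69, with no overlap (0.67, SE 0.19, adjusted p = 0.0063, and 0.48 with the GC offset, adjusted p = 0.076). SLC10A7 measured 5.14, 4.86 and 4.10 CPM in NC and 4.88, 8.31 and 8.07 in RBM47-OE. Replicate 1 lay within NC, and the change of 0.59 (SE 0.17, adjusted p = 0.0089) was called in 3 of the 6 fits that left out a library, and not without NC replicate 3, RBM47-OE replicate 2 or RBM47-OE replicate 3 (adjusted p = 0.051, 0.088 and 0.057). Its change was 0.21 with the GC offset (adjusted p = 0.39). SLC27A6, a fatty acid carrier of the acyl-CoA synthetase type, rose from 11.99, 8.36 and 11.1 CPM to 15.3, 14.7 and 14.6 (0.51, adjusted p = 0.0021, and 0.35 with the GC offset, adjusted p = 0.040). With SLC39A10 and SLC2A12, SLC46A3 and SLC10A7 made up the 4 members past the thresholds of the study.

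**Figure D3:**
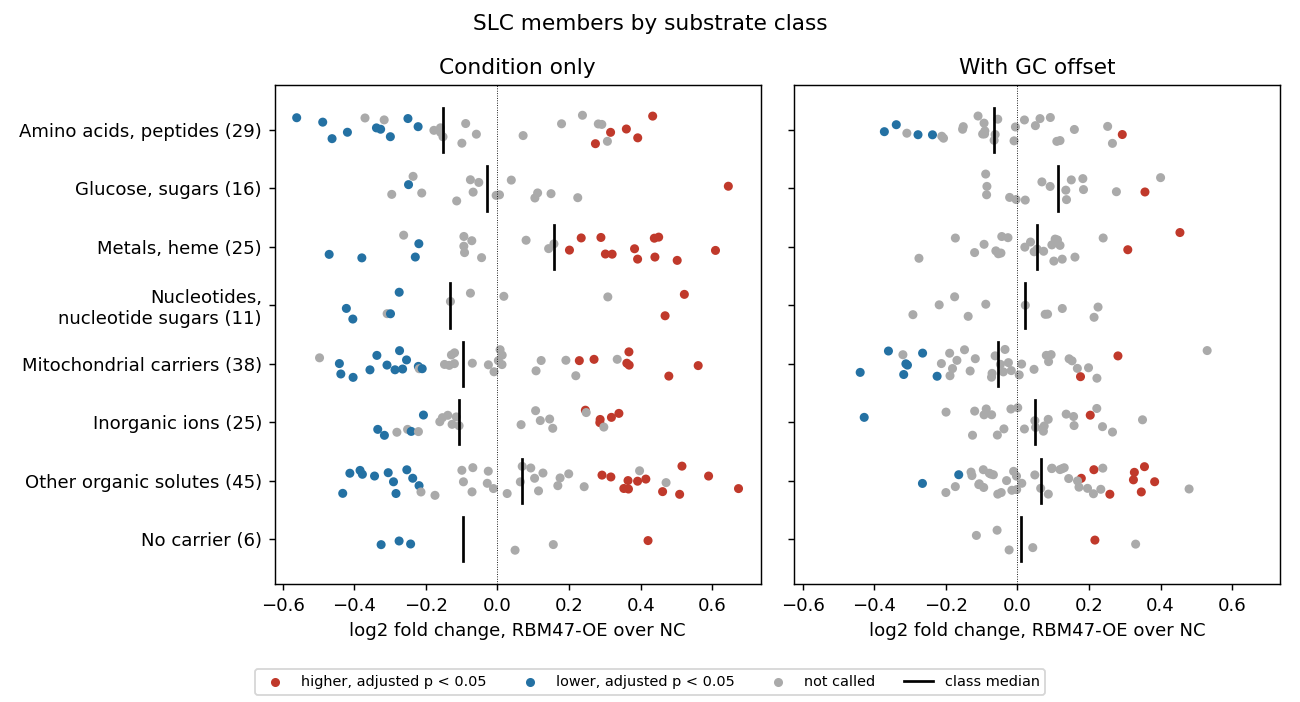
Log2 fold change (RBM47-OE over NC) of each member by substrate class, with the number of members in brackets, in the edgeR fit with condition only (left) and with the GC offset (right). Red and blue points are members called higher and lower, grey points were not called and black bars are class medians; the median of the metal and heme carriers was 0.16 on the left and 0.06 on the right.

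The rule also took in 6 symbols that name no carrier. SLC9A3R1 and SLC9A3R2 are scaffolds of the NHERF type, and SLC2A4RG is a transcription regulator. All 3 were lower, at -0.32, -0.24 and -0.27 (adjusted p = 7.5e-04, 0.021 and 0.0053), and none was called with the GC offset (-0.11, -0.02 and -0.06). SLC9A3R2 was called in 2 of the 6 fits that left out a library. SLC4A1AP (kanadaptin) was higher at 0.42 (adjusted p = 7.8e-04, and 0.22 with the GC offset, adjusted p = 0.035). SLC7A6OS (0.05) and SLC22A18AS (0.16) were not called, and both overlap a carrier gene. Without the 6, 44 of 189 members were higher (23.3%) and 45 were lower (23.8%). These shares were near the 24.8% and 21.2% of the protein-coding genes with a mean of at least 50 reads.

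Of the 93 members called, 17 were called in the same direction under all 16 alternative fits, among them both fits with the GC offset and the 6 that left out a library. The 10 higher ones were SLC1A1, SLC2A12, SLC9A7, SLC39A10, SLC39A11, SLC25A37, SLC16A1, SLC66A3, SLC27A6 and SLC4A1AP. Among the 7 lower ones were SLC43A2, SLC7A5, SLC38A5, SLC25A22, SLC25A5 and SLC5A6. SLC3A2 was called in 13 of the 16, and its adjusted p reached 0.079 with limma on log2(FPKM + 1). This set was chosen after the values were seen and is a description. The share of all genes called under all 16 fits is not given, so the 17 cannot be set against it.

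**Figure D4:**
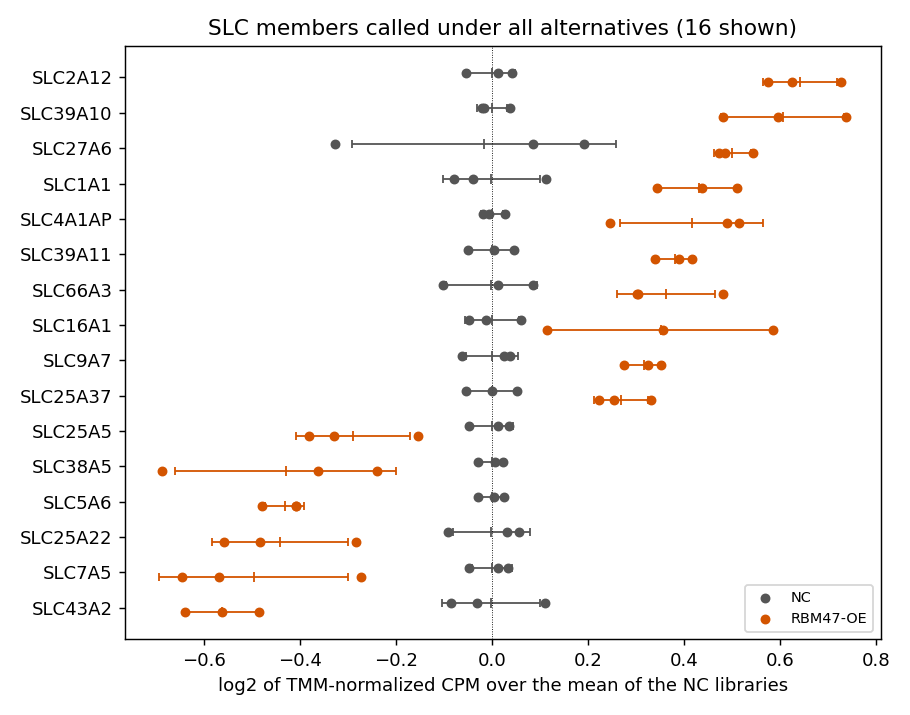
Log2 of the TMM-normalized CPM over the NC mean for 16 of the 17 members called under all 16 alternatives, 1 point per library (grey NC, orange RBM47-OE), with the mean and SD (n = 3). In each of them the RBM47-OE libraries lie on 1 side of all NC libraries, and SLC7A5, SLC38A5 and SLC16A1 have the widest spread within RBM47-OE.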

How the data were processed

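Poly(A) RNA-seq libraries of HCT116 cells were used, 3 NC and 3 RBM47-OE. The deposited counts are whole numbers of uniquely mapped reads per gene and library, without normalization, made by the authors after adaptor and quality trimming and alignment to GRCh38 with HISAT2 (per the methods and the submitters' processing notes). The deposited FPKM values divide fragments by gene length and by mapped fragments. The counting tool, annotation release and strand setting are not given in the sources used here. The labels name a NEBNext directional kit and the methods a KC stranded kit. Nothing states that the libraries of a group came from separate cultures, so p-values measure the spread between these libraries, which may be technical. No libraries agreed within sampling noise.

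Counts were tested in R 4.3.3 with edgeR 4.0.16 (filterByExpr with a minimum count of 10 and a total of 15, TMM, quasi-likelihood test, condition only), and p-values were adjusted over all 16260 genes. In simulated counts with 200 changed genes, edgeR recovered 100 of 100 at 2-fold and 86 of 100 at 1.5-fold, with 8 false calls among 16063 genes. The simulated libraries had no trend with GC content and no change under 1.5-fold. These figures therefore give no error rate for the calls here, most of which were under 1.5-fold. Exonic GC content and coordinates came from GENCODE 44 on GRCh38. The GC offset was a loess curve (span 0.3) per library. Alternatives were DESeq2 1.42.0 on the counts and limma 3.58.1 on log2 FPKM with a pseudocount of 1 or 0.1, above a mean of 0.1 FPKM. edgeR was repeated with library totals or RLE factors, without the filter or with 10 counts required everywhere, with a term for the replicate number, with that term beside the GC offset, and without each library in turn. Member limits of 10 and 200 mean counts were also tried. The GC offset without RBM47-OE replicate 1 was added after seeing the data.

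The members and lists were chosen with earlier results of these data known. Members were named where the adjusted p was under 0.05 and the fold change over 1.5, where they had the largest change in either direction of their class without overlap, where they had the highest mean FPKM of their class, next to the count limit, or where they are no carriers, beside 26 fixed names of well-known carriers, of which SLC40A1 was no member. Other names were chosen after their values were seen. SLC4A1AP was moved to the non-carriers after its value was seen. Some genes that these rules name are not reported here.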

Additional observations from a re-analysis of the deposited data

How the results depend on the processing

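Without the GC offset, 45 members were higher and 48 lower, 4 and none at the thresholds of the study. With the GC offset the counts were 16, 14, 0 and 0, with the GC offset and the replicate block 18, 15, 0 and 0, and with the GC offset without RBM47-OE replicate 1 11, 14, 0 and 0. Library totals gave 50, 32, 6 and 0. limma gave 27 lower and 0 past the thresholds of the study on log2(FPKM + 1), and 28 lower on log2(FPKM + 0.1). Members with at least 200 mean counts gave 2 past those thresholds. Leaving out each library gave 28 (without NC replicate 2) to 54 higher, 29 (without NC replicate 1) to 53 lower, 2 to 6 higher and 0 to 4 lower past the thresholds of the study. The 2 were left without RBM47-OE replicate 3 and the 4 lower appeared without RBM47-OE replicate 2. The cause of these shifts was not tested.

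Class medians of the log2 fold change with the GC offset, and then with the block too, were -0.065 and -0.066 for amino acids, 0.11 and 0.11 for glucose, 0.049 and 0.051 for inorganic ions, 0.055 and 0.050 for metals, -0.055 and -0.055 for mitochondrial carriers, 0.022 and 0.028 for nucleotides, and 0.009997 and 0.0099 for the non-carriers. limma on log2(FPKM + 1) gave -0.064 for amino acids, -0.0041 for inorganic ions, 0.21 for metals and -0.019 for mitochondrial carriers. On log2(FPKM + 0.1) it gave -0.079 for amino acids, 0.23 for metals, -0.024 for mitochondrial carriers and 0.13 for other organic solutes. Library totals, which shifted the median of all genes to 0.062, gave 0.034 for glucose, 0.22 for metals, -0.034 for mitochondrial carriers and 0.13 for other organic solutes. The median of inorganic ions was 0.11 at a limit of 10 and 0.086 at a limit of 200 mean counts, and that of non-carriers -0.24 at 200. Without single libraries the medians ran from -0.17 to 0.053 for inorganic ions, from -0.12 to -0.060 for mitochondrial carriers from 0.020 to 0.10 for other organic solutes, from -0.18 to -0.048 for nucleotides and from -0.10 to 0.013 for glucose.

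Same-numbered libraries did not deviate together from their group means (r = -0.060, -0.015 and -0.016). These values cannot show whether the libraries were prepared in pairs, which the labels and methods do not state. The replicate block gave 42 higher and 45 lower members. Of 736 comparisons of a named member with an alternative, 654 stayed on the same side of the threshold, 73 lost the call, 9 gained one and no call reversed. Of the losses, 17 were with the GC offset and 17 with the GC offset and the block. Depth limits members near 50 counts, where SE was above 0.2 on the log2 scale.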

Other observations

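Carriers whose symbol or alias falls outside the rule, such as SLC35 members with a letter other than A, sideroflexins and magnesium carriers, were read from a list of 64 names, of which 54 were tested. In RBM47-OE 5 were higher and 4 lower, beside 19.1% and 16.9% of all genes tested. The GC offset gave 1 higher and 4 lower, beside 5.97% and 8.57%. SFXN2, a mitochondrial sideroflexin, had 1.23, 1.36 and 1.28 FPKM in the NC libraries and 0.88, 0.76 and 1.00 FPKM under RBM47-OE (edgeR log2 fold change -0.62, adjusted p = 5.3e-04; -0.59 with the GC offset, adjusted p = 0.0020). LETM1, a protein of the mitochondrial inner membrane for ion exchange, was lower at -0.37 (adjusted p = 3.4e-04; -0.18 with the GC offset, adjusted p = 0.040). NIPA1, a magnesium carrier, was higher at 0.42 (adjusted p = 2.7e-04; 0.31 with the GC offset, adjusted p = 0.0019). XPR1 (0.38), the phosphate exporter, MAGT1 (0.31), SLC35F5 (0.50) and SLC35B3 (0.34) were higher and SLC35C1 (-0.43) and SPNS1 (-0.25) lower, and none of these 6 was called with the GC offset.

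Of 24 partner proteins and regulators of carriers, 6 were higher and 5 lower, beside 24.8% and 21.2% of the protein-coding genes with a mean of at least 50 reads. The GC offset gave none higher and 2 lower, beside 7.60% and 10.7%. BSG, described above, was 1 of the 2. ATP1B1, a regulatory subunit of an ion pump, was higher at 0.20 (edgeR adjusted p = 0.042, and -0.04 with the GC offset, where it was not called). MYC was lower at -0.22 (adjusted p = 0.023; -0.11 with the GC offset), SREBF2 and MLXIP were lower at -0.23 and -0.26, and HIF1A (0.32), NFE2L2 (0.30), IREB2 (0.35), NFAT5 (0.37) and EMB (0.35) were higher; with the GC offset none of these 8 was called.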
